A study of Mus musculus with 30 samples.

Results

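Melanin synthesis was followed through 8 genes, Tyr, Tyrp1, Dct, Mlana, Pmel, Oca2, Slc45a2 and Mitf, in the whole eye and the hypothalamus of mice lacking Period3 (Per3-/-, labelled KO in the plots) and of wild-type (WT) litter mates. The members were all array probes that the hypothalamus files list under 1 of these 8 gene names, with Pmel also accepted under its older names Si and Silv, and the eye arrays were matched to them by probe name. This gave 10 of the 41174 probes, with 2 probes each for Dct and Mitf and 1 for every other gene, and Pmel was listed as Si. Of 2 probes of a gene, the one of higher signal in the eye is called the lead probe here and the other the second probe.

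All mice were adult males on a C57Bl/6J background, kept in cycles of 3.5 h light and 3.5 h dark and killed in the light of cycle 17. The knockout allele is carried in every cell of the mouse, with a selection cassette in place of an early part of Per3. Whole eyes of 7 WT and 7 Per3-/- mice were measured, and a block of tissue cut around the optic chiasm, called hypothalamus, of 8 WT and 8 Per3-/- mice, each animal's tissue on an array of its own, unpooled. Mice are named by genotype and by the replicate number of the labels, and the same number in both tissues was taken as the same mouse. A level is the log2 of a probe's processed signal relative to the 75th percentile of its array, so that 0 is that percentile and 1 unit is a doubling. Probes differ in how well they bind, so differences were tested only within a probe, and signals of different probes served only to choose lead probes and the genes to name and to sum marker lists.

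Melanin is made in melanosomes, organelles of the retinal pigment epithelium and of the melanocytes of the choroid, iris and ciliary body. Tyrosinase (Tyr) carries out the rate-limiting oxidation of tyrosine, and the related enzymes TYRP1 and DCT shape the later steps towards eumelanin. PMEL builds the fibrils on which pigment is laid down, MLANA takes part in melanosome maturation, and the transporters OCA2 and SLC45A2 are needed for the right ion balance and pH of the melanosome. MITF is the transcription factor at the head of this programme and binds E-box motifs in the promoters of pigment genes. A whole eye and a block of brain hold many cell types, so fewer pigment cells and less RNA per pigment cell cannot be told apart in these values.

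The brightness of the arrays set what could be seen. The 75th percentile of the processed intensities lay between 1192 and 1736 on eye arrays and between 1440 and 2253 on hypothalamus arrays, and 71.4% to 80.7% and 68.0% to 75.6% of the probes were well above background. Each tissue was run on 4 slides that held both genotypes, and the slides of the tissues were separate, so tissue and array run cannot be told apart. The Per3 probe had medians of -3.30 in WT and -3.81 in Per3-/- eyes and of -3.47 and -4.02 in the hypothalamus, and the genotypes overlapped in both tissues. Of 5 rod and 5 lens marker genes, each was well above background on all 14 eye arrays, and so were the 10 genes of the pigment epithelium list. All 7 neuropeptide genes of the hypothalamus list were well above background on the 16 hypothalamus arrays. Some hypothalamus arrays also carried high levels of genes of other tissues: Gh reached 8.19 in KO1, the genes of the choroid plexus were high in 5 arrays, and genes of the olfactory bulb were high in KO7. The mean of 5 pituitary genes was also raised in WT5, to 3.09 log2 above its mean over arrays, against 6.50 in KO1. Those arrays are named where they touch a result.

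Promoter sequence from RefSeq (GRCm38.p6, 250 bases before to 50 after each start) was at hand for 5 of the 8 genes, Tyr, Tyrp1, Dct, Oca2 and Mitf, in 7 windows. It is shown because MITF binds E-box motifs in the promoters of pigment genes. The letters TCATGTG, the core of the element known in pigment genes as the M-box, were searched on both strands and found in the windows of all 3 enzymes of the tyrosinase family. The matches are printed in capitals, with 30 bases in all on the strand of the gene.
Tyr, chr7:87493516-87493545, minus strand, match from -22 to -16 before the start: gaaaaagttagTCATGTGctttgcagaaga
Tyrp1, chr4:80834155-80834184, plus strand, match from -47 to -41: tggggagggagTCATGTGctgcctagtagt
Dct, chr14:118052379-118052408, minus strand, match from -151 to -145: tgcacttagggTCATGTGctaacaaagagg

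The same 11 letters, AGTCATGTGCT, surround the match in Tyr and Tyrp1, and the Dct match differs in the first of them (GGTCATGTGCT). Dct also held the letters on the opposite strand, from -232 to -226. Among 32851 promoter windows of that length, 3.77% held TCATGTG, 0.0213% (7 windows) held the 11 letters of Tyr and Tyrp1, and 0.0791% (26 windows) held those of Dct. The shorter CATGTG, which every TCATGTG contains, was also in the Oca2 window and in 14.2% of all windows, and in none of the 3 Mitf windows. CACGTG, found in 7.15% of windows, was in none of the 7. TAATCC was in the windows of Dct and Tyrp1 and in 1 Mitf window, against 7.06% of all. These are matches of letters, not measured binding. Between eyes, Tyr and Tyrp1, which share the 11 letters, had Pearson's r = 0.36 and Spearman's rho = 0.16. Dct had r = 0.63 with Tyr and 0.67 with Tyrp1. A link between the letters and the levels between eyes was not tested.

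All 10 probes were well above background on all 14 eye arrays, and none was saturated. In the hypothalamus, 8 probes were well above background on 15 or 16 of 16 arrays, Mlana on 7, and Tyr on none. With tissue compared across all 30 arrays by limma, 8 of the 10 probes, covering 7 of the 8 genes, were higher in the eye at an adjusted p under 0.05, and none was lower. Of all probes, 45.3% were called higher and 36.3% lower in the eye, with a median difference of 0.15 log2. For each of these 8 probes, the lowest eye lay above the highest hypothalamus array. Both probes of Mitf missed the threshold. With normexp background correction, whose offset of 50 raises dim signals, the same 8 differences were all smaller, from 1.18 log2 (Tyr) to 9.87 (Dct, lead probe).

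Tyr lay below the 75th percentile in every eye and was not well above background in the brain. Its probe (A_51_P102311, mm9 chr7:94576265-94576324) is spotted 10 times per array. In WT eyes the lowest, median and highest levels were -4.87, -4.63 and -4.32, and in Per3-/- eyes -5.05, -4.69 and -4.52. In the hypothalamus no array was well above background, between -8.93 and -8.09. Tyr was therefore at least 3.69-fold higher in the eye, against the lowest signal that passed as well above background (adjusted p = 1.88e-27 by limma on the measured signals).

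Tyrp1 (A_51_P431985, mm9 chr4:80497125-80497184, 10 spots) had levels of 2.84, 3.09 and 3.20 in WT and of 2.57, 3.28 and 3.43 in Per3-/- eyes (lowest, median, highest). Hypothalamus arrays lay between -5.02 and -3.78. The difference between the tissues was 7.42 log2 (SE 0.11), a 171-fold higher level in the eye.

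Dct, the dopachrome tautomerase gene, was read by 2 probes. The lead probe (A_51_P116838, mm9 chr14:118412048-118412105) gave 6.81, 7.04 and 7.35 in WT and 6.71, 7.21 and 7.26 in Per3-/- eyes, against -3.75 to -2.58 in the hypothalamus. The second probe starts at base 1266 of the transcript, in place of 2169. Its sequence is shown because it gives another reading of the same gene.
Dct second probe (A_52_P550629), mm9 chr14:118438837-118438896: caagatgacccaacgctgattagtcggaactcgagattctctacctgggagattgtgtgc

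The tissue difference was 10.31 log2 (SE 0.10), or 1265-fold, with the lead probe and 9.81 (SE 0.09), or 898-fold, with the second. Between eyes the probes rose and fell together (r = 0.93 over 14 eyes, permutation p = 2e-05; Spearman's rho = 0.86, p = 0.00018; r = 0.90 without the 2 eyes farthest from the median).

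Of the melanosome proteins, Mlana (A_51_P499623, mm9 chr19:29782839-29782898) stood at 5.03, 5.18 and 5.39 in WT and 4.81, 5.31 and 5.33 in Per3-/- eyes. It was well above background on 2 of 8 WT and 5 of 8 Per3-/- hypothalamus arrays, where levels ran from -7.33 to -5.11. The fitted difference was 11.58 log2 (SE 0.16), and 9.49 with normexp correction, against a brain level that was measured on only 7 of 16 arrays and was not well above background on the other 9. Pmel (A_51_P208145, mm9 chr10:128156029-128156986, across an exon junction) had 3.76, 4.00 and 4.26 in WT and 3.55, 4.26 and 4.41 in Per3-/- eyes, and -4.24 to -3.68 in the hypothalamus. This was a 249-fold higher level in the eye (7.96 log2, SE 0.08). In RefSeq other genes overlap the Pmel locus, so transcripts that share its exons would be read with it.

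Both transporter genes were called higher in the eye. Slc45a2 (A_51_P508693, mm9 chr15:10957641-10957700) measured 0.89, 1.08 and 1.39 in WT and 0.90, 1.27 and 1.41 in Per3-/- eyes, and -6.18 to -4.56 in the hypothalamus, a 93.2-fold difference (6.54 log2, SE 0.10). Oca2 (A_51_P162144, mm9 chr7:63791667-63791726) measured -0.37, -0.31 and 0.05 in WT and -0.47, -0.22 and -0.19 in Per3-/- eyes. In the hypothalamus Oca2 spread over 3.12 log2 units, from -5.89 to -2.76, and the tissue difference of 4.65 log2 (SE 0.29, 25.2-fold) had the widest error of the 8 probes.

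Mitf, the regulator, had levels that overlapped between eye and hypothalamus. The lead probe (A_51_P364274, mm9 chr6:97968386-97968445, 10 spots) was at -2.48, -2.35 and -2.06 in WT and -2.52, -2.32 and -2.14 in Per3-/- eyes. In the hypothalamus it ran from -2.54 to -2.10 in WT and from -2.65 to -1.08 in Per3-/- mice. The tissue difference was -0.03 log2 (SE 0.10, 95% interval -0.23 to 0.17, adjusted p = 0.758), and 0.04 (adjusted p = 0.535) without mouse KO7. With quantile normalization, which moved the median difference of all probes from 0.15 to -0.07 log2, the lead probe was called lower in the eye (-0.29, adjusted p = 0.00718).

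The second Mitf probe crosses a large intron, and the letters it reads encode part of the DNA-binding basic region. It is shown because it did not follow the lead probe.
Mitf second probe (A_52_P100140), mm9 chr6:97956187-97960443 (4257 bases with the intron): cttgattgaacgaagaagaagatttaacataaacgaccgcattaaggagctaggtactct

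Its tissue difference was 0.41 log2 (SE 0.24, adjusted p = 0.111). It was called higher in the eye with normexp background correction (0.42, adjusted p = 0.0225) and when WT mouse 8 was left out (0.52, adjusted p = 0.0476), and had the opposite sign with quantile normalization (-0.25, adjusted p = 0.331). Across the 14 eyes the probes of Mitf had r = -0.40 (permutation p = 0.158; rho = -0.45, p = 0.105; r = -0.24 without the 2 eyes farthest from the median) and across the 16 hypothalamus arrays r = 0.42 (p = 0.0981; rho = 0.48, p = 0.0608; r = 0.48 without 2). The second probe also moved with the slide: its means on the 4 eye slides were -3.90, -4.44, -4.88 and -4.73, and on the 4 hypothalamus slides -6.11, -4.83, -4.74 and -4.29. With slide means taken out, r was -0.34 over eye arrays and 0.11 over hypothalamus arrays. The lead probe, a mean of up to 10 spots, was the one used for Mitf between eyes.

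**Figure D1:**
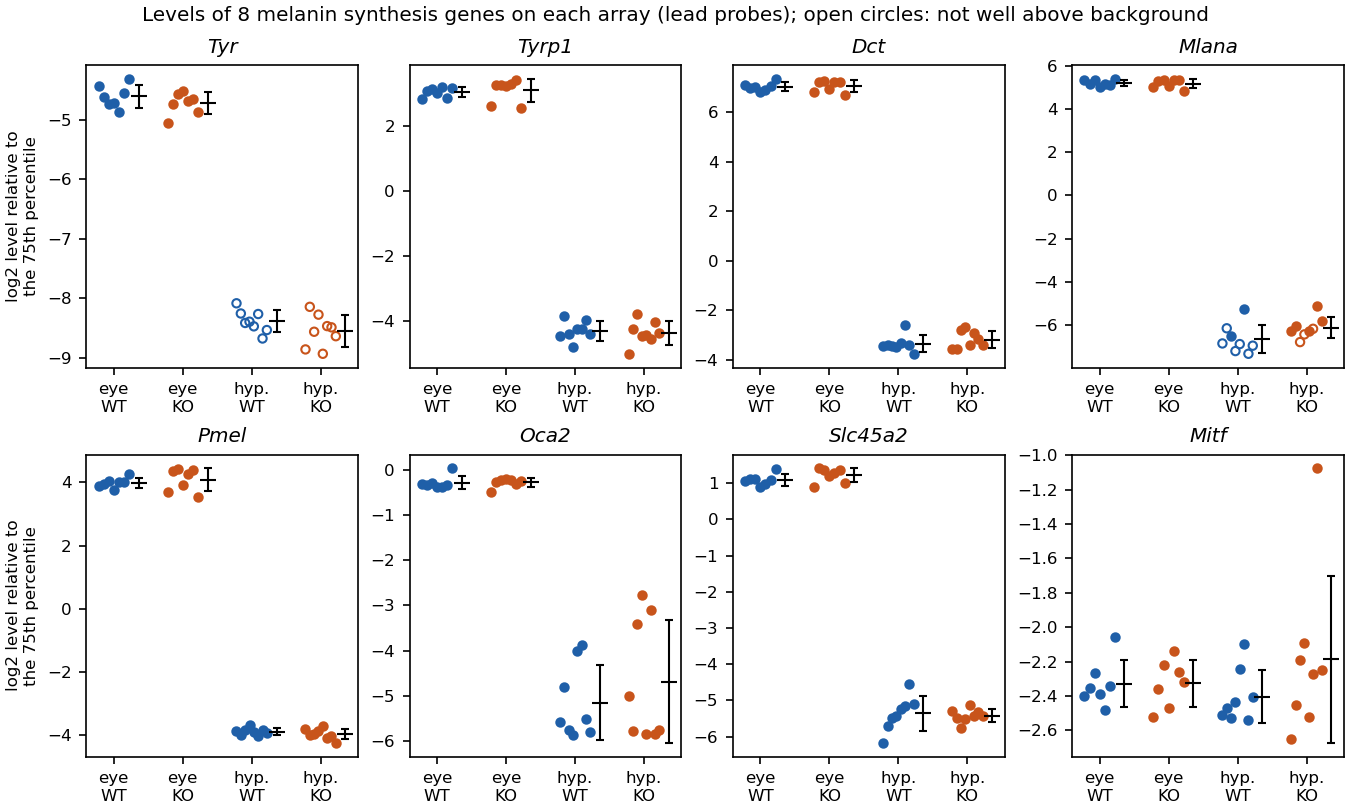
Log2 level relative to the array's 75th percentile (y axis, own scale per gene) of the lead probe of each gene on every array, by tissue and genotype (WT blue, Per3-/- orange; hyp. is hypothalamus), with mean and SD beside each group and open circles for arrays on which the probe was not well above background. For 7 genes every eye lies above every hypothalamus array, whereas Mitf spans the same levels in both tissues except for KO7 at -1.08.

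Levels of the lead probes differed by less than 2-fold between the 14 eyes. The ratio of the highest to the lowest eye ran from 1.38-fold for Mitf to 1.81-fold for Pmel and Tyrp1, over the lead probes. The second probe of Mitf spanned 2.75-fold. For the 3 genes with 10 spots on each array, the spread can be set beside the error between spots of an array, which leaves out dissection, labelling and hybridisation: the SD between eyes was 12.4 times the standard error of an array mean for Tyrp1 (0.26 log2), 4.83 times for Mitf (0.13) and 3.91 times for Tyr (0.19). The same eyes tended to be high or low for all 8 genes, read by lead probes. In WT mouse 8 and Per3-/- mouse 4, all 8 genes lay above their mean over eyes, by 0.25 and 0.18 log2 on average. In WT mouse 5 and Per3-/- mouse 2, all 8 lay below, by 0.15 and 0.27. Per3-/- mouse 8 was low by 0.25 on average, with Oca2 and Mitf just above their means.

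Both genotypes reached both ends of this order. The mean deviation of the 8 genes ran from -0.15 to 0.25 in WT and from -0.27 to 0.18 in Per3-/- eyes. The SD between Per3-/- eyes was above that between WT eyes for 6 of the 8 lead probes and below it for Tyr and Oca2. It was 0.35 against 0.15 in WT for Tyrp1 and 0.36 against 0.16 for Pmel, but nearly equal for Mitf (0.137 against 0.136). For Tyrp1, 5 Per3-/- eyes lay above every WT eye and the other 2 (mice 2 and 8) below every WT eye. The difference in spread was not tested, nor set beside that of all probes.

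**Figure D2:**
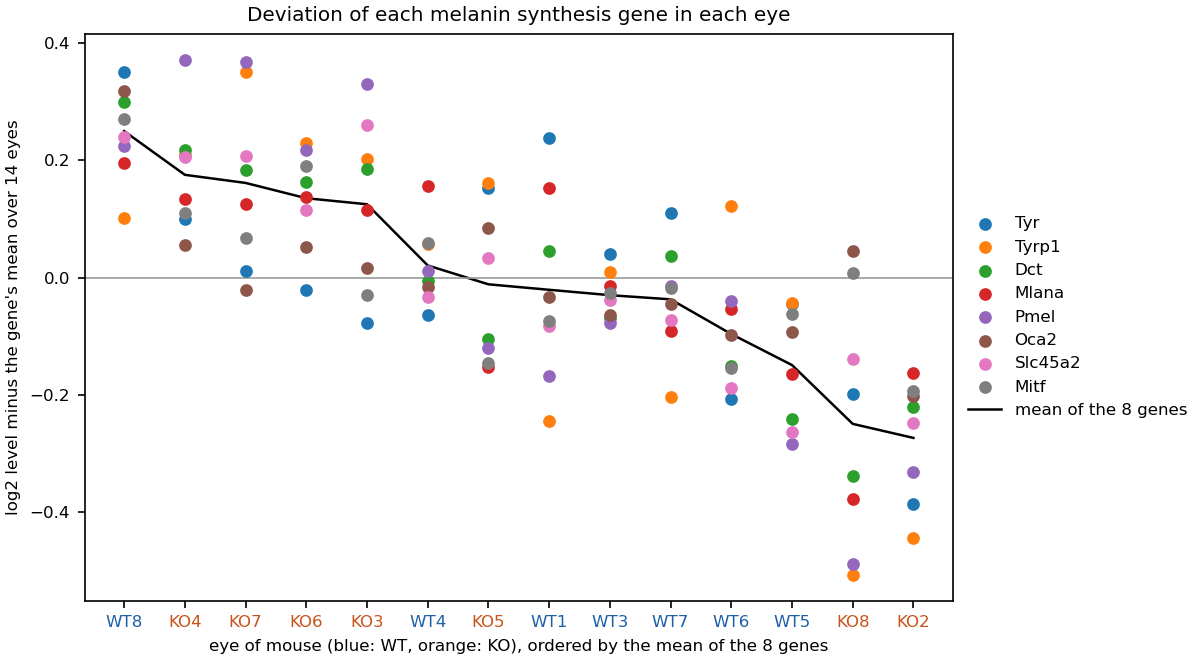
Deviation of each gene's lead probe from its mean over 14 eyes (log2, y axis) for every eye, ordered along the x axis by the mean of the 8 genes (black line), with WT mice in blue and Per3-/- mice in orange. The points of an eye lie mostly on 1 side of 0 at both ends, from WT8 (mean 0.25) to KO2 (mean -0.27).

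Every pair of the 8 genes correlated positively across eyes when read by lead probes. The second probe of Mitf did not follow the other 7 genes (r = -0.06 with their mean). Pearson's r over the 28 pairs of lead probes ran from 0.35 (Tyrp1 and Oca2) to 0.92 (Dct and Pmel), with a median of 0.66, and 19 pairs had a permutation p under 0.05 after Benjamini-Hochberg adjustment over the 28 relations. With Spearman's rho all 28 were positive (0.16 to 0.88) and 14 passed. How many pairs of other probes would pass was not counted, so these counts have no background beside them. Dct and Pmel had r = 0.92 (permutation p = 2e-05, adjusted 0.00028; rho = 0.88, p = 0.00014, adjusted 0.00196; r = 0.91 without the 2 eyes farthest from the median of Dct). Dct was likewise close to Slc45a2 (r = 0.89, permutation p = 9e-05, adjusted 0.000616; rho = 0.87, p = 0.00013, adjusted 0.00196; r = 0.91 without 2 eyes) and to Mlana (r = 0.89, permutation p = 2e-05, adjusted 0.00028; rho = 0.80, p = 0.00075, adjusted 0.0042; r = 0.83 without 2 eyes). By Pearson's r each of the 7 pairs with Dct passed, against 2 of the 7 with Tyr. By rho, Dct missed the threshold with Tyr (adjusted permutation p = 0.0766) and with Oca2 (0.0756). Tyr and Oca2, which passed by r, also missed it by rho (0.105). All these permutations took the 14 eyes as exchangeable. Eyes of the same replicate number, which shared a slide, deviated together (0.109 to 0.627 in 6 pairs), so these p-values may be too low.

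With normexp background correction, 20 of the 28 correlations were above 0 and 8 passed, with a median of 0.40. The 8 that turned negative were those of Tyr with Tyrp1, Dct, Mlana, Pmel and Slc45a2 and those of Mitf with Tyrp1, Dct and Mlana.

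The same pattern was seen within slides and within genotypes. All 28 correlations were positive with slide means taken out (0.33 to 0.94) and with genotype means taken out (0.35 to 0.93). Within the 7 Per3-/- eyes all 28 were positive (0.14 to 0.99), and within the 7 WT eyes 26 were (-0.36 to 0.95). Tyrp1 was the gene whose pairs fell apart in WT. Its r with Dct was -0.00043 there (exact permutation p = 0.999) and 0.90 in Per3-/- eyes (exact permutation p = 0.00337). Among Per3-/- eyes, mice 2 and 8 were the lowest for both genes. Over all eyes the r of this pair was 0.67, and 0.39 without the 2 eyes farthest from the median of Tyrp1. The lowest r in Per3-/- eyes were those of Oca2 with Mlana (0.14), Dct (0.30) and Pmel (0.30). These differences between genotypes were not tested. Leaving out the 2 eyes farthest from the median of the first gene kept 27 of 28 above 0, and Tyr with Mitf went to -0.02. Without WT mouse 8, 11 pairs passed in place of 19, with all 28 still positive. Measures of the arrays moved with the profile to some degree: the mean deviation of the 8 genes had r = -0.41 with the array's 75th percentile (rho = -0.43; r = -0.39 without 2 eyes), r = 0.47 with the number of spots marked uneven or outlying (rho = 0.41; 0.46 without 2 eyes) and r = -0.03 with the percentage of probes well above background. The part of array quality in the covariation was not tested.

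**Figure D3:**
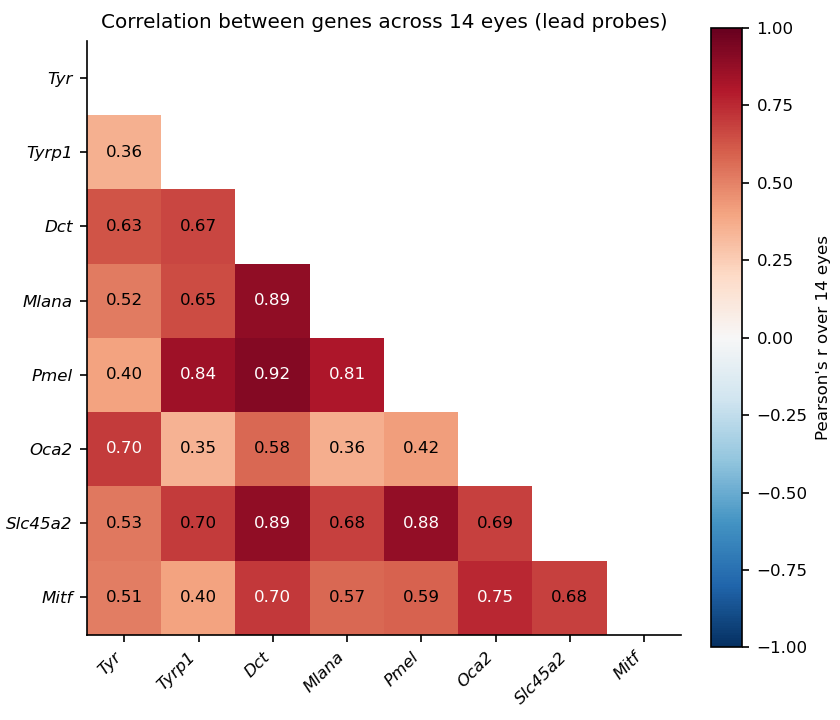
Pearson's r between the lead probes of each pair of genes over 14 eyes, written in each cell and coloured from -1 (blue) to 1 (red). All 28 values are above 0, and Dct, Pmel and Slc45a2 form the closest group (0.88 to 0.92).

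The 10 probes of other genes that followed the order of eyes most closely were named by rule, with no test of what they share. Among 27874 probes well above background on all eyes, the r with the mean of the 8 genes had a median of -0.0038 and was above 0.8 for 7 probes of other genes. The nearest was Mcoln3 (r = 0.91), an endolysosomal cation channel, followed by Tspan10 (0.91), a tetraspanin of pigment cells, and Slc24a5 (0.86), the melanosomal cation exchanger. The next were Cdc42ep1 (0.82), C2 (0.82), C1qtnf5 (0.80), Igf2bp1 (0.80), Myoc (0.80), Cited1 (0.79) and Mical1 (0.78). C1qtnf5 is made by the pigment epithelium, Myoc encodes myocilin of the trabecular meshwork, and Cited1 is a transcriptional co-activator known from melanocytes. By normexp background correction 4 of the 10 were among the 100 nearest probes, Tspan10 had r = 0.61 (rank 393), and C1qtnf5, C2 and Mical1 had r = 0.20, 0.38 and 0.29. Set against the mean of the other 7 genes, Dct had r = 0.94, higher than any probe of another gene outside the 8, and Tyr, with 0.58, was passed by 306 probes. For Mitf the lead probe had r = 0.69, and the second probe, with -0.06, was passed by 16254 probes.

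Genes of melanosome biogenesis and transport were read from a list of 27, all measured on every eye. Of these, 18 were higher and 8 lower in the eye than in the hypothalamus at an adjusted p under 0.05, beside 45.3% and 36.3% of all probes, with a median difference of 0.75 log2 against 0.15. The 4 named here by rule, for the signal of their probes in the eye, were Dtnbp1 (dysbindin, 4.77; 0.75 log2 higher in the eye, SE 0.04), Hps4 (3.29; 0.37 higher, SE 0.04), Trpm1 (3.13; 10.97 higher, SE 0.16, but well above background on only 1 of 16 hypothalamus arrays) and Ap3b1 (2.79; -0.07, SE 0.03, adjusted p = 0.0705). Dtnbp1, Hps4 and Ap3b1 serve protein sorting to lysosome-related organelles in many cells, and Trpm1 is a channel of melanocytes and of retinal bipolar cells. Over the eyes the median r of the 27 with the mean of the 8 genes was 0.27, and 20 were above 0, from -0.55 (Bloc1s6) to 0.91 (Mcoln3). Trpm1 had r = 0.76, whereas Dtnbp1 (-0.05), Hps4 (-0.09) and Ap3b1 (-0.02) were near 0.

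Regulators of pigment cells formed a list of 17, of which 8 were higher and 8 lower in the eye, beside 45.3% and 36.3% of all probes. The 4 named by the same rule were Otx2, a factor of the pigment epithelium and retina (1.51; 3.84 log2 higher in the eye, SE 0.13), Cited1 (1.05; -1.24, SE 0.08), the endothelin receptor gene Ednrb (0.36; -1.85, SE 0.13) and Creb1 (0.14; -0.19, SE 0.06). Over the eyes, Otx2 had r = -0.16 with the mean of the 8 genes, Ednrb 0.09 and Creb1 0.23. The median was 0.16 over the 16 genes well above background on all eyes, which leaves out Asip.

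Marker lists of other cell types were read beside the 8 genes. The mean of the 10 pigment epithelium genes had r = 0.01 with the mean of the 8 over the 14 eyes (rho = -0.0022; 0.21 without 2 eyes), and its summed level ran from 85.8 to 119 times the 75th percentile in WT and from 93.1 to 109 in Per3-/- eyes. The mean of the 5 melanocyte and neural crest genes, all 5 of which are also in the list of regulators, had r = 0.51 (permutation p = 0.0602, adjusted over 7 lists 0.421; rho = 0.40, p = 0.154, adjusted 0.471; r = 0.70 without 2 eyes), and its summed level was 2.83 to 3.66 in WT and 2.45 to 3.54 in Per3-/- eyes. In that list, Pax3 had r = 0.60, Sox10 0.58, Mc1r 0.24, Ednrb 0.09 and Kit -0.0019. The r of the lists of meninges, lens, rod, ocular surface and skeletal muscle genes ran from -0.06 to 0.36, and from -0.35 to 0.61 (meninges) without 2 eyes each. With slide means taken out, r was -0.11 to 0.30 for these lists, 0.32 for the pigment epithelium list and 0.66 for the melanocyte list. Of the choroid plexus genes, Clic6 had r = 0.56, Ttr 0.43, Folr1 0.40 and Kl 0.13. Their part in the covariation was not tested.

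None of the 10 probes was called changed by the loss of Per3 in the eye. By limma, 0 of 10 passed an adjusted p under 0.05, beside 8 of 41174 probes (0.0194%), and none had an unadjusted p under 0.05. The log2 differences, Per3-/- minus WT, ran from -0.15 to 0.12 with a median of 0.02, 7 above and 3 below 0, and the median of all probes was 0.00. The lowest p was that of Slc45a2, at 0.12 log2 (SE 0.10, 95% interval -0.08 to 0.33, p = 0.217, adjusted p = 0.999987; two-sided exact permutation p = 0.205). Over the lead probes, the intervals reached from -0.34 for Tyr to 0.41 for Pmel, and the interval of the second Mitf probe reached -0.64. With the replicate number as a block, 1 probe of the array was called lower in place of 8, and again none of the 10. In that fit Slc45a2 was at 0.17 log2 (SE 0.11) and Pmel at 0.14 (SE 0.16), and with normexp correction Tyr was at 0.25 (SE 0.29), so changes beyond the intervals above are not excluded.

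In the hypothalamus, 0 of 10 probes were called, beside 17 of 41174 (0.0413%), and none had an unadjusted p under 0.05. Tyr was well above background on 0 of these 16 arrays and Mlana on 7, so their differences rest on arrays where the probe was not measured above background. The differences ran from -0.16 (Tyr) to 0.53 (Mlana), with a median of 0.15 against -0.01 for all probes. Mlana had the lowest p, 0.53 log2 higher in Per3-/- mice (SE 0.28, 95% interval -0.06 to 1.12, p = 0.0768, adjusted p = 0.989; two-sided exact permutation p = 0.0953). It was 0.38 without mouse KO7, whose Mlana level was the highest of all, and -0.04 with normexp background correction. Oca2 was 0.46 higher (SE 0.53, 95% interval -0.67 to 1.60, adjusted p = 0.989). The genotype effect in the eye was called different from that in the hypothalamus for 0 of the 10 probes (adjusted p = 0.99994 for each), beside 2 of 41174 probes (0.00486%). Of the 27 melanosome genes and the 17 regulators, 0 were called by genotype in either tissue.

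**Figure D4:**
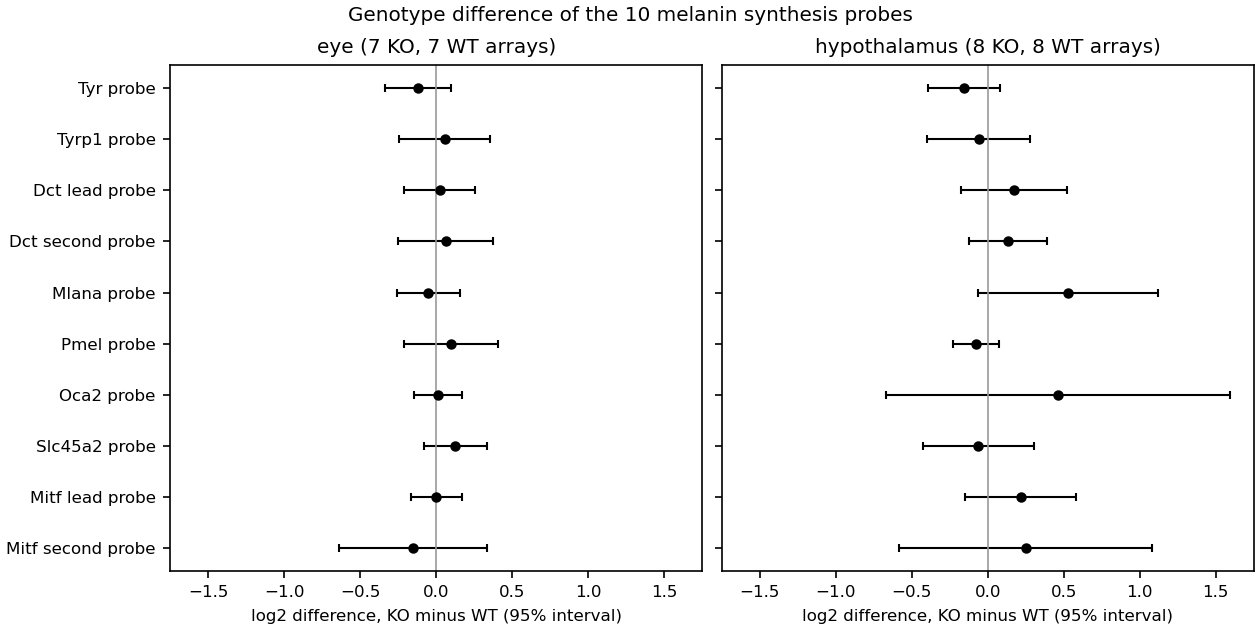
Log2 difference of each of the 10 probes, Per3-/- (KO) minus WT, with its unadjusted 95% interval from limma, in the eye (left) and the hypothalamus (right). Every interval includes 0, and the widest is that of Oca2 in the hypothalamus (-0.67 to 1.60).

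The spread of Oca2 between hypothalamus arrays followed the genes of the choroid plexus, the tissue that secretes cerebrospinal fluid. The 5 arrays of highest Oca2, WT5, WT6, KO3, KO4 and KO6 (-4.003 to -2.76), were the 5 with the highest mean of the choroid plexus genes Ttr, Kl, Folr1 and Clic6 (1.998 to 2.57 above their mean over arrays). WT2 and KO1 came next in both (Oca2 -4.80 and -5.02, choroid plexus 1.27 and 0.79). WT5 and KO1 were also the arrays with a raised mean of pituitary genes (3.09 and 6.50). The other 9 arrays had Oca2 from -5.89 to -5.53 and choroid plexus means from -2.02 to -0.39. The 4 genes were well above background on all 16 arrays, and their summed level ran from 2.16 to 15.2 in WT and from 1.88 to 18.9 in Per3-/- mice. As the arrays fall into separate clusters, no correlation is given. With the choroid plexus mean as a covariate, an alternative added after seeing that it followed Oca2, the genotype difference of Oca2 was 0.18 (SE 0.20) in place of 0.46. The part of choroid plexus in the Oca2 levels was not tested.

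With its lead probe, Dct shared 4 of its 5 highest hypothalamus arrays with the choroid plexus list. These were WT6, KO4, KO3 and KO6 (-2.93 to -2.58), and KO7 was the other one. The second probe of Dct was also highest in WT6, KO4 and KO3 (-4.78 to -4.66). It was at -5.10 in KO6 and -5.23 in WT5, below its mean of -5.03 over the 16 arrays. Mitf was singular in KO7, at -1.08, with its 10 spots between -1.20 and -0.93, whereas all other hypothalamus arrays lay at or below -2.09. KO7 was also the array with high genes of the olfactory bulb, a list chosen after seeing the data: S100a5 was at 3.51 there and at -6.51 or lower elsewhere, Doc2g at 3.55 against -1.77 or lower, and Tbx21 at 0.15 against -4.72 or lower. Without KO7 the genotype difference of Mitf was 0.06 (SE 0.09) in place of 0.22 (SE 0.17). The part of olfactory bulb tissue in the Mitf level was not tested.

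**Figure D5:**
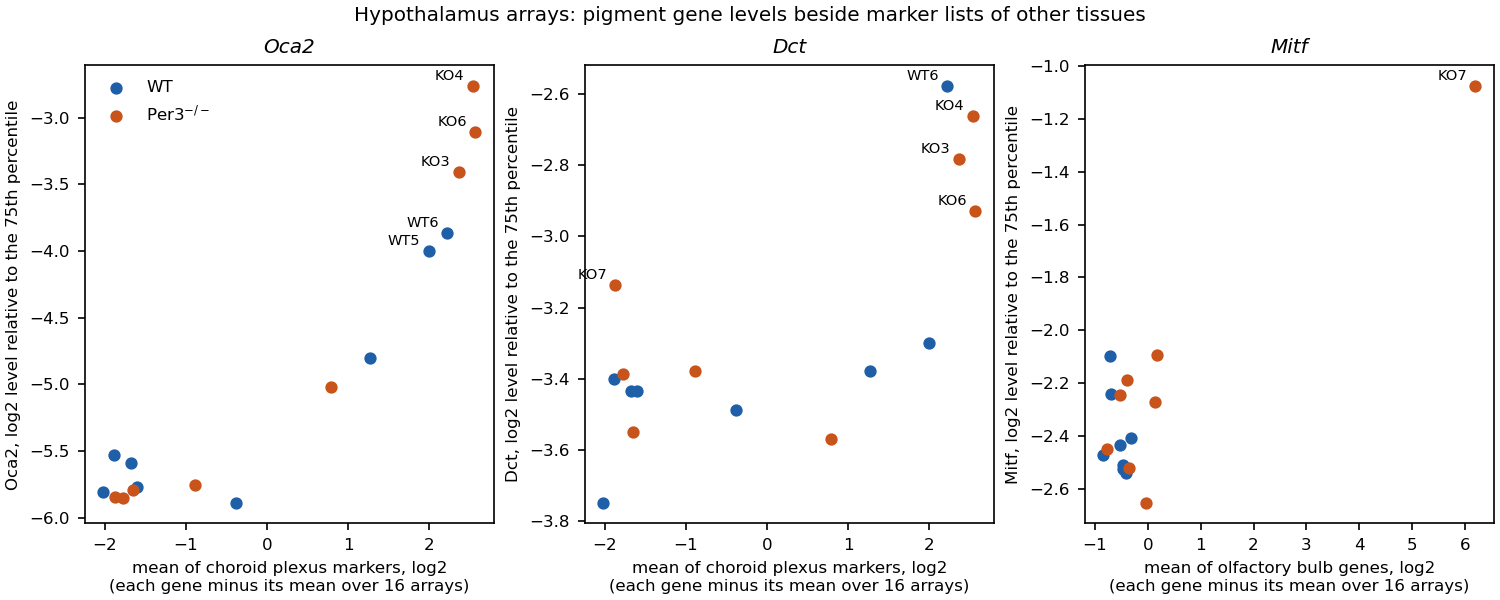
Log2 levels of Oca2, Dct and Mitf (lead probes, y axes) on the 16 hypothalamus arrays against the mean of 4 choroid plexus genes (left and middle) or 5 olfactory bulb genes (right), WT in blue and Per3-/- in orange. The 5 arrays of highest Oca2 are the 5 of highest choroid plexus mean, and KO7 stands apart in Mitf at -1.08.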

How the data were processed

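RNA from whole eye and from a block of the hypothalamus was labelled with Cy3 and hybridised to Agilent arrays of 60-mer probes, 1 array per mouse and tissue. The authors extracted a processed intensity per spot with Agilent Feature Extraction 10.7.1.1, which subtracts the background and per the file headers makes no normalization between arrays. They also deposited a table of log2 values relative to each array's 75th percentile, centred per probe over the arrays, used here only as an alternative. From the intensities, log2 levels were computed relative to the 75th percentile of all non-control spots of an array. Uneven and outlying spots (36 to 91 per array, by their flags) were dropped, spots of a probe were averaged, and a probe counted as well above background where at least 0.5 of its spots were marked so. No gene was left out for low signal.

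Genotypes were compared within each tissue, unpaired, with limma 3.58.1 in R 4.3.3, with Benjamini-Hochberg adjustment across the 41174 probes and an adjusted p under 0.05 as the call. Tissues, and the difference in genotype effect between them, were compared over 30 arrays taking arrays of 1 mouse as correlated (0.0583, duplicateCorrelation). Single probes were also compared by exact permutation (3432 splits in the eye, 12870 in the hypothalamus), and correlations across 14 eyes by 100000 permutations, or by all 5040 orders within a genotype. Other steps used Python 3.11.15, numpy 2.4.6, scipy 1.17.1 and pandas 2.3.3. The number of arrays limits the precision, and all intervals are at 95%. In simulated data with 200 changed probes among 41174, this fit recovered 70% of changes of 1 log2 and 88% of changes of 2 in the eye, and 87% and 99% in the hypothalamus.

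The genes and the lists were chosen with earlier results of these data known, so the lists are described by counts and medians and support nothing on their own. Named genes were all probes of the 8 genes, the 10 probes nearest to their mean over eyes, and of each list the genes called between genotypes, or else the 4 of highest eye level. The olfactory bulb genes were picked after values were seen. Positions are those of the hypothalamus files (mm9), as the eye files name an older build and give none. Deviations from the group means of eyes of the same replicate number correlated in all 6 pairs (0.109 to 0.627). As these eyes always shared a slide, a pairing by number cannot be told apart from an effect of the slide. The labels do not say that the numbers pair the mice. The fit with the replicate number as a block is therefore given beside the eye result, as an alternative. Alternatives were quantile normalization, normexp background correction (offset 50), a filter on dim probes, marked spots kept, the deposited table, slide and replicate number as blocks, the methods' t-test and leaving out each mouse. No column of the authors' own comparisons was used.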

Additional observations from a re-analysis of the deposited data

Results flagged for a closer look

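Among the 40 groups formed by the 10 probes, the 2 tissues and both genotypes, 4 held a sample whose gap to the nearest of the others was a large part of the group's range by Dixon's test, and about 2 would be by chance (1 in 20). Dct (lead probe) in the hypothalamus of WT mouse 6 was at -2.58, against -3.75 to -3.30 in the other WT mice, and that array had a choroid plexus mean of 2.22. Oca2 in the eye of WT mouse 8 was at 0.048, against -0.37 to -0.29, in the eye where all 8 genes were above their means. Oca2 in the eye of Per3-/- mouse 2 was at -0.47, against -0.29 to -0.19, in an eye where all 8 were below. Mitf (lead probe) in the hypothalamus of Per3-/- mouse 7 was at -1.08, against -2.65 to -2.09, on the array with high olfactory bulb genes.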

How the results depend on the processing

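Of the 10 probes, 0 were called between genotypes in either tissue under any alternative, and 8 to 9 were called between tissues. Signal over background limits Tyr and Mlana in the hypothalamus, where they were well above it on 0 and 7 of 16 arrays. In the eye, probes called higher in Per3-/- (0) numbered 1 with quantile normalization, 1 with the filter on dim probes, 2 with slide as a block and 0 to 1 without each mouse in turn, and those called lower (8) numbered 5 with quantile normalization, 4 with normexp correction and 1 with the replicate block. In the hypothalamus the 3 called higher became 1 with normexp correction, 1 with the replicate block, 1 by the methods' t-test and 1 to 3 without each mouse, and the 14 called lower became 9 with normexp correction and 4 with the replicate block. There the same-number pairs correlated at -0.03 to 0.32, with 3 of 8 above 0.1, so that these samples, which share a slide as well as a number, were not taken as pairs. The block changed no call of the 10 probes in either tissue.

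Genotype differences of these probes, none of which passed the test, changed sign as follows (log2, Per3-/- minus WT). With normexp correction they were 0.25 (Tyr), -0.0019 (Tyrp1), -0.022 (Dct, lead probe) and 0.24 (Mitf, second probe) in the eye, and -0.12 (Dct, second probe), -0.043 (Mlana) and -0.075 (Mitf, second probe) in the hypothalamus. Quantile normalization gave -0.0012 for the lead probe of Mitf in the eye. Without each mouse in turn, the eye values ran from -0.014 to 0.082 (Dct, lead probe), -0.083 to 0.0071 (Mlana), -0.0069 to 0.062 (Oca2) and -0.030 to 0.047 (Mitf, lead probe), and the hypothalamus values from -0.14 to 0.032 (Tyrp1), -0.18 to 0.052 (Slc45a2) and -0.027 to 0.42 (Mitf, second probe). The genotype effect in the eye minus that in the hypothalamus changed sign with normexp correction, to 0.11 (Dct, second probe) and 0.31 (Mitf, second probe). The tissue difference of the lead probe of Mitf was 0.039 with normexp correction, 0.076 in WT mice alone and -0.064 to 0.041 without each mouse, and that of the second probe was -0.25 with quantile normalization.

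Across eyes, the pairs of genes that passed fell to 8, and the median r to 0.40, with normexp correction. Without each eye in turn 11 to 21 pairs passed, with 11 without WT mouse 8. With the mean of each replicate number taken out, an alternative added after seeing the data, the median r was 0.81. With normexp correction r was -0.10 for Tyr and Tyrp1, -0.21 for Tyr and Dct, -0.33 for Tyr and Mlana, -0.073 for Tyr and Pmel, -0.050 for Tyr and Slc45a2, -0.026 for Tyrp1 and Mitf, -0.086 for Dct and Mitf and -0.21 for Mlana and Mitf. Without the 2 eyes farthest from the median of Tyr, r of Tyr and Mitf was -0.023. Of the 10 nearest probes, 4 were among the 100 of highest r with normexp correction. The cause of these changes was not tested.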

Other observations

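Besides the probes listed under its name, 2 probes (A_52_P199922 and A_52_P176608) mention Mitf in the description of their transcript without carrying the gene name. The first ran from -8.47 to -5.49 in the eye and was well above background on 3 of 14 eye and 0 of 16 hypothalamus arrays. The second ran from -8.84 to -5.45 in the eye and was well above background on 3 eye and 2 hypothalamus arrays. Neither was used for Mitf.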
